A study of Mus musculus with 4 samples.

Results

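The genes described here encode the subunits of the mitochondrial respiratory chain and of ATP synthase that are carried in the nucleus. They were taken by symbol: every listed gene whose name starts with Ndufa, Ndufb, Ndufc, Ndufs, Ndufv, Uqcr, Cox4, Cox5, Cox6, Cox7, Cox8 or Atp5, and Sdha, Sdhb, Sdhc and Sdhd. The rule took 94 of the 32344 genes listed. By complex these were 47 genes of complex I, 4 of complex II, 8 of complex III, 18 of complex IV and 17 of complex V. The name covers more than subunits, because the letters Ndufa also take in 8 assembly factors of complex I (Ndufaf1 to Ndufaf8), which help to build the complex and are not part of it. These 8 genes are therefore given apart, and 86 members remained without them. Complexes were assigned by symbol. The complex I sums and counts therefore include Ndufa4, now counted with complex IV, and Ndufb1-ps, annotated as a long non-coding RNA.

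The respiratory chain sits in the inner mitochondrial membrane. Complex I takes electrons from NADH and complex II from succinate, both pass them to ubiquinone, complex III hands them to cytochrome c, and complex IV gives them to oxygen. Proton pumping by complexes I, III and IV drives complex V, the ATP synthase. Complexes I, III, IV and V are mosaics of subunits from the nuclear and the mitochondrial genome, while complex II is wholly nuclear. As background, neutrophils have few mitochondria and draw their ATP mostly from glycolysis, whereas lymphocytes rely more on respiration, and activation of B and T cells is followed by mitochondrial growth.

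The cells were CD45+ immune cells of mouse liver in 4 libraries, each a pool of 5 mice given tamoxifen for 1 week. They were 1 GS(+/delta)Hep library (replicate 1, a heterozygous hepatocyte deletion of GS, glutamine synthetase, encoded by Glul), 1 URI(+/delta)Hep library (replicate 1, a heterozygous hepatocyte deletion of URI, a chaperone-like protein encoded by Uri1) and 2 WT libraries (replicates 1 and 2), called GS, URI and WT below. The labels do not say which Cre line made the deletions, nor the sex, strain or age of the mice. The deletions are in hepatocytes, so the sorted cells do not check them: Glul was at 73.6 CPM in GS, 80.8 in URI and 70.7 and 84.0 in WT (CPM, counts per 1e+06 UMIs of the gate or library; a UMI is a unique molecular identifier), and Uri1 at 91.2 in GS, 95.005 in URI and 93.5 and 82.3 in WT. RNA was read with a hybridised and ligated probe set in fixed cells, so levels of different genes depend on their probes and are not set against each other. Before the CD45 sort came collagenase digestion, lysis of red cells and a Percoll gradient, from which the mononuclear interface was taken.

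Barcodes with at least 500 UMIs were kept, 7453 to 9096 per library, with medians of 4448 UMIs in GS, 4973 in URI and 3763 and 2659 in WT. GS yielded 39451266 UMIs in all and URI 51920505, while the WT libraries yielded 37783065 and 24041049. No full barcode was shared between libraries. A total of 1480 to 2076 barcodes per pair shared their first 16 bases, the part that names the droplet in a multiplexed run. The libraries did not stand at equal distances: the summed Y-linked genes Ddx3y, Eif2s3y, Kdm5d and Uty were at 174 CPM in GS, 432 in URI and 9.83 and 178 in WT. WT replicate 2 was the shallowest and had fewer mitochondrially encoded transcripts than the rest. The part of either in the values below was not tested, and the named genotype differences are also given without WT replicate 2.

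Cells were placed in gates by raw marker UMIs: at least 2 of a lineage's markers with a UMI and fewer than 2 of every other lineage's. The gates tested were B cells (1242 to 1986 barcodes per library), CD4 T cells (586 to 1236), CD8 T cells (621 to 1587), other T cells (567 to 801), NK cells, with type 1 innate lymphoid cells among them (631 to 854), and neutrophils (664 to 1247). They held 72.7% to 77.9% of the kept barcodes. Monocytes, basophils, dendritic and plasma cells fell under 50 barcodes in at least 1 library and are given as levels. Of the 94 members, 90 had a UMI, Cox7b2, Cox8b, Atp5h and Atp5g2 were listed at 0, and 85 passed the filter on low counts (46 of complex I, 4 of II, 8 of III, 12 of IV and 15 of V). The 9 that did not pass had 0 to 237 UMIs and were mostly tissue-restricted isoforms.

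CD8 T cells had the highest summed level of the 94 genes, B cells held less and neutrophils least. The sum over members was 10372 CPM in GS, 9914 in URI and 10996 and 9978 in WT for CD8 T cells. B cells had 6599 CPM in GS, 6417 in URI and 6921 and 6197 in WT. Neutrophils had 3038 CPM in GS, 3792 in URI and 2965 and 3490 in WT. The ranges of these gates did not overlap. In every library CD8 T cells came first, the other T cell gates next, then NK cells, then B cells and last neutrophils. CD4 T cells (9640 ± 304 CPM) and other T cells (9770 ± 566 CPM; SD, n = 4 libraries each) lay within each other's spread and swapped places in URI, and NK cells were at 8458 ± 411 CPM. As a share of the CD8 T level of the same library, NK cells held 80.4% to 83.4%, B cells 62.1% to 64.7% and neutrophils 27.0% to 38.3%. A summed level is a share of all UMIs in the gate, so fewer mitochondria per cell and more RNA of other kinds per cell cannot be told apart.

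**Figure D1:**
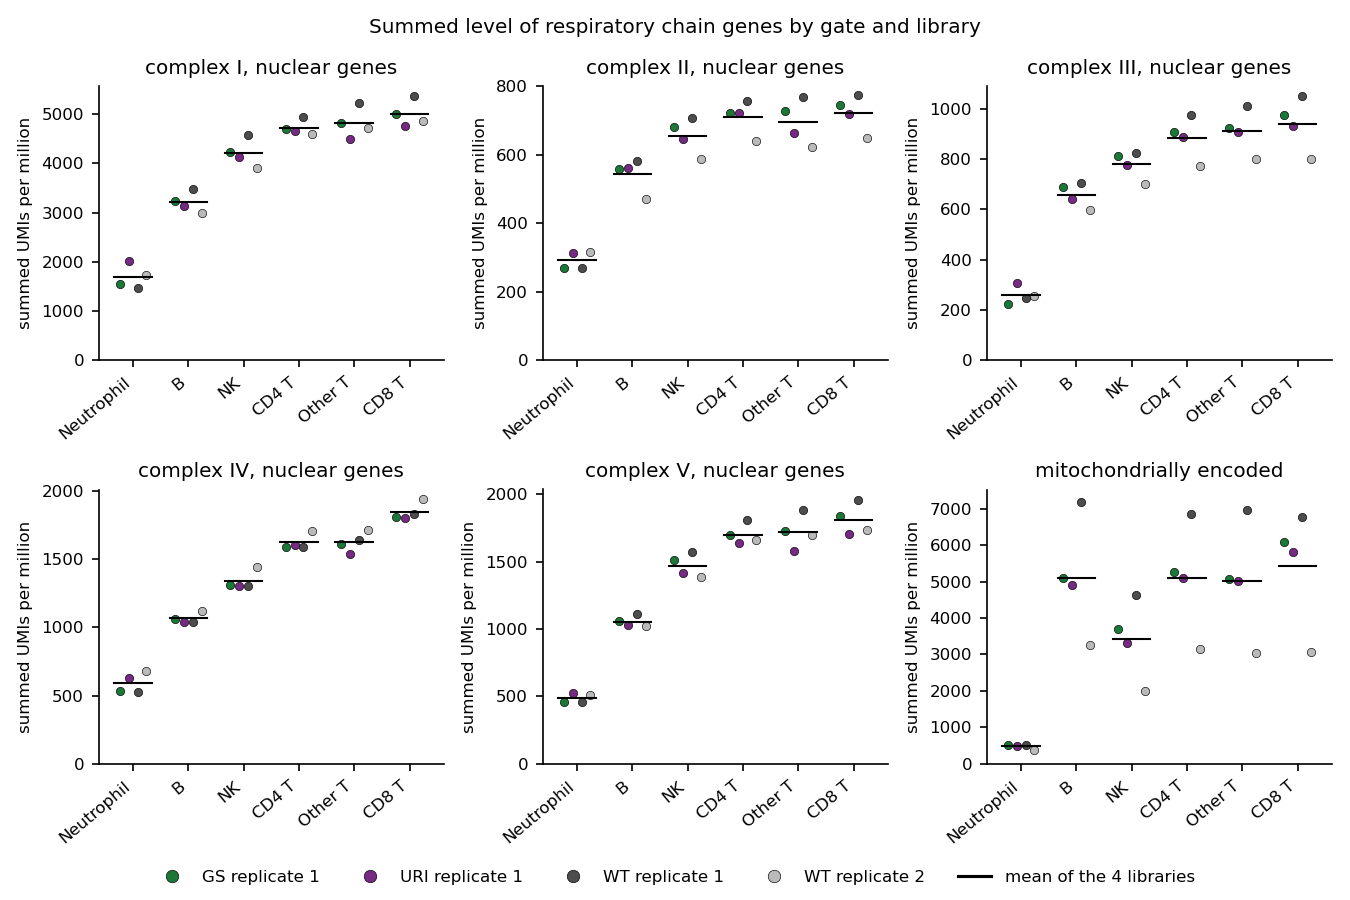
Summed level of the members of each complex (CPM, vertical axes starting at 0), and of the 13 mitochondrially encoded subunits in the last panel, by gate, with a point for each library (GS, URI, WT replicate 1, WT replicate 2 from left to right) and a bar at the mean of 4. In every panel neutrophils lie lowest, and in the nuclear panels the B cell means lie under those of NK and T cells.

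The order of CD8 T cells, NK cells, B cells and neutrophils held cell by cell at equal depth in each library. After each barcode was thinned to 1000 UMIs, the median barcode spent 0.9% to 1% of its UMIs on the members in CD8 T cells, 0.8% to 0.9% in NK cells, 0.6% to 0.7% in B cells and 0.25% to 0.3% in neutrophils. CD4 T cells were at 0.9% and other T cells at 0.9% to 1%. Both tied with CD8 T cells in URI, and CD4 T cells tied with NK cells in WT replicate 1. Without thinning the medians were 0.965% to 1.06% in CD8 T cells, 0.598% to 0.681% in B cells and 0.258% to 0.317% in neutrophils. Among the gates not tested, monocytes had 6800 CPM in GS, 6931 in URI and 7674 and 7704 in WT, and basophils had 5117 in GS, 4199 in URI and 4799 and 3773 in WT. Free RNA, read from barcodes under 100 UMIs, was at 8613 CPM in GS, 8132 in URI and 9107 and 7418 in WT, and neutrophils were under that level in every library. T cell markers were at 46.9 to 74.0 CPM in neutrophils, against 2200 to 3819 in CD8 T cells. Immediate early genes, a sign of handling stress, were at 25330 to 42660 CPM in neutrophils and 6878 to 17960 in CD8 T cells, and their part in the low levels was not tested.

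The complexes did not shift by the same amount. In B cells complex IV stood at 57.9% and complex V at 58.4% of the CD8 T level (means of 4 libraries), complex I at 64.2%, complex III at 70.3% and complex II at 75.01%. Within complex I, the 7 core subunits that carry the electron path stood at 80.5% in B cells, against 59.6% for the other subunits. The 8 assembly factors stood at 81.1%. In NK cells complex IV was lowest at 72.5% and complex II highest at 90.8%. The place of complex IV in both gates rested on 1 gene, Cox7a2l: without it, a sum taken after seeing the data, complex IV stood at 64.1% of the CD8 T level in B cells and 93.4% in NK cells. In neutrophils complex II kept the largest share, at 40.8%, and complexes V and III the smallest, at 27.2% and 27.8%. The assembly factors of complex I fell to 22.4% there.

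Each gate was then set against the unweighted mean of the other 5 gates within libraries, gene by gene, with edgeR's quasi-likelihood test over 11013 genes and Benjamini-Hochberg adjustment at 0.05. These fits use TMM scaling, which sets most genes of the samples to the same level. The TMM factors were 0.467 to 0.504 in neutrophils and 1.04 to 1.23 in the other gates, so neutrophil levels are scaled up. In neutrophils the calcium-binding proteins S100a8 and S100a9 alone took 7.18% to 12.8% of the UMIs. Every count is therefore read against the calls over all genes, and directions are also given by library totals where they differ.

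CD8 T cells were higher in 59 of the 85 members and lower in 1, where 36.1% of all genes were higher and 31.4% lower. The median log2 difference of the members was 0.26, against 0.02 over all genes. By library totals 81 members were higher, where 57.4% of all genes were, and the members' median of 0.56 stood beside 0.32 for all genes. CD4 T cells were higher in 46 members and lower in 6 (all genes 34.7% and 28.8%), with a median of 0.17 against 0.03. By library totals 77 were higher in CD4 T cells, where 61.0% of all genes were. Other T cells were higher in 45 and lower in 3 (all genes 33.6% and 27.1%), with a median of 0.20 against 0.03, and by library totals 80 were higher, where 60.8% of all genes were. NK cells were higher in 33 and lower in 7 (all genes 33.2% and 27.1%), with a median of 0.13 against 0.03, and by library totals 57 were higher, where 45.1% of all genes were. The few lower calls also changed with single libraries: without WT replicate 1 there were 3 in CD8 T cells and 4 in NK cells, and in other T cells there was 1 without GS and 0 without URI.

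B cells were lower in 62 of the 85 members and higher in 7, where 32.7% of all genes were lower and 39.9% higher. The median log2 difference of the members was -0.39, against 0.06 over all genes. By library totals 46 members were lower, where 25.5% of all genes were, with a median of -0.22 against 0.22. All 46 of those members were among the 62. Neutrophils were lower in 48 members and higher in 21, where 46.0% of all genes were lower and 37.4% higher, and the medians of -0.36 and -0.25 lay close together. By library totals neutrophils were lower in 82 members and higher in 1, where 74.3% of all genes were lower and 17.5% higher, with medians of -1.60 and -1.48. The median of the members thus differed from that of all genes by -0.11 with TMM and -0.12 by library totals, while single members lay far from both.

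Monocytes and basophils did not reach the limit of 50 barcodes in every library and were added to the other gates in a second fit, chosen after seeing the data. Monocytes were higher in 25 of 86 members and lower in 4, where 26.2% of all genes were higher and 20.1% lower, with a median log2 difference of 0.17 against -0.04 over all genes (edgeR quasi-likelihood). Basophils were lower in 34 and higher in 1, where 18.3% of all genes were lower and 17.1% higher, with a median of -0.61 against -0.30.

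**Figure D2:**
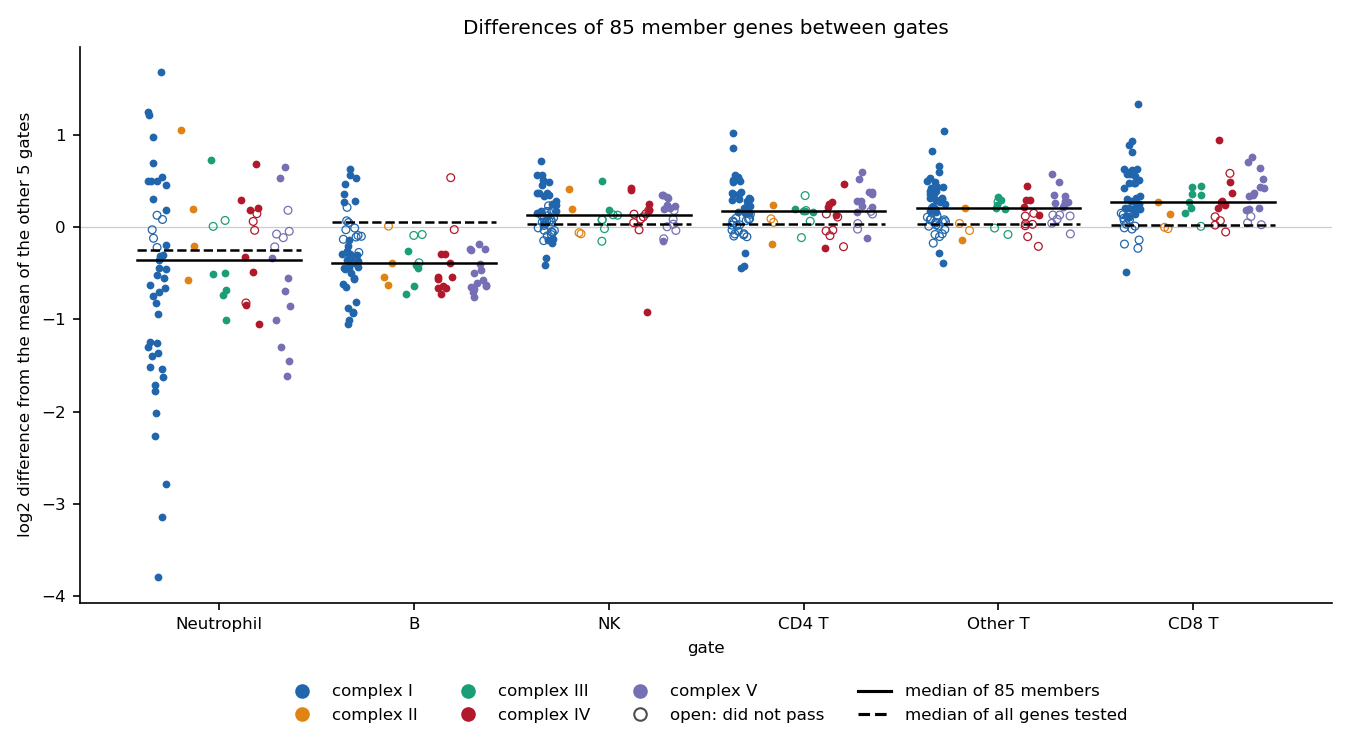
Log2 difference of each of the 85 members tested between a gate and the mean of the other 5 gates (TMM scale, vertical axis), by gate and complex, with members past adjusted p 0.05 filled, the median of the members as a solid line and that of all 11013 genes as a dashed line. CD8 T members lie mostly above the dashed line (59 higher, 1 lower), B members mostly below it (62 lower, 7 higher), and neutrophil members spread from -3.80 to 1.67.

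The widest spread was in the assembly factors of complex I in neutrophils, and in 1 subunit, Ndufa12. Ndufaf2 is a paralogue of Ndufa12: in human cells it holds its place on the growing complex until the subunit Ndufa12 takes it. Ndufaf4 works in human cells with Ndufaf3 in the early membrane modules, and Ndufaf5 adds a hydroxyl group to the core subunit Ndufs7. The windows around their start sites, from 250 bases before to 50 after, are shown because, among members of at least 20 CPM over the gates, these had the 3 largest falls in neutrophils (Ndufaf4, Ndufaf2 and Ndufaf5) and the largest rise (Ndufa12). They are RefSeq sequences on GRCm38.p6, written 5′ to 3′ on the gene's strand, with capitals where the 10 letters of the core binding motif of nuclear respiratory factor 1 (NRF1) were found.
Ndufaf4, chr4:24897833-24898132, + strand: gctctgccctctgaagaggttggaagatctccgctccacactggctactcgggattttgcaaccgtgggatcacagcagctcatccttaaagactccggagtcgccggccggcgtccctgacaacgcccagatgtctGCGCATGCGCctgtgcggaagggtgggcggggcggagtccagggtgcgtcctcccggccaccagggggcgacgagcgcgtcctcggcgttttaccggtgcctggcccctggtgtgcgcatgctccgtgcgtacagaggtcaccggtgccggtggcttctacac
Ndufaf5, chr2:140170396-140170695, + strand: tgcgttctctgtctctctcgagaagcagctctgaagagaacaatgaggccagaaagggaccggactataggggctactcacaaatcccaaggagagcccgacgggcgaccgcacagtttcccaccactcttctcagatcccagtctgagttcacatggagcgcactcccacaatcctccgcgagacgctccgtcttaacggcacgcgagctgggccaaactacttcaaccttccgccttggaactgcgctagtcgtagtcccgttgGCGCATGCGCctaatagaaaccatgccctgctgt
Ndufaf2, chr13:108158576-108158875, - strand: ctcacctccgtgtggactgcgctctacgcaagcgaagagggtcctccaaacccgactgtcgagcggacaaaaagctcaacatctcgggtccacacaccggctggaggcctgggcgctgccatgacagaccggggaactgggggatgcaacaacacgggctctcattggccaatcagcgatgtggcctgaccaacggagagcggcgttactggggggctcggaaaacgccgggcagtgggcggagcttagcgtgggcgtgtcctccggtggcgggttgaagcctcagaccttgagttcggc
Ndufa12, chr10:94198785-94199084, + strand: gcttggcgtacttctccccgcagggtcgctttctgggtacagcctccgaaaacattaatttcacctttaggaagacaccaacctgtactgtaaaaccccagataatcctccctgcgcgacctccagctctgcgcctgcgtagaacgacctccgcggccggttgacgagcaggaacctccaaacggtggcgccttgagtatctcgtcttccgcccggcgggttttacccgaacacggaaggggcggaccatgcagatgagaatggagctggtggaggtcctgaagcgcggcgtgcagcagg
The match began 113 bases before the start of Ndufaf4 and 16 bases after that of Ndufaf5. The capitals spell the whole motif, which reads the same on both strands. It was in the windows of 7 of the 77 members with a RefSeq entry (9.09%: Atp5g2, Atp5k, Cox6a1, Ndufa11, Ndufaf4, Ndufaf5 and Uqcrc1), against 264 of 27025 promoters of the same length (0.977%). With any letter in its place 5, a looser search on both strands that contains the first, the counts were 18 members (23.4%) and 1293 promoters (4.78%). The ETS core ACTTCCGG, searched on both strands, was in 5 members (6.49%: Atp5h, Cox8a, Ndufs3, Uqcr11 and Uqcrh) and 1081 promoters (4.00%). The windows of Ndufaf2 and Ndufa12 held none of the 3, which says only that these letters are not there. The RefSeq start of Ndufa12 lies inside the GENCODE gene given below, whose own start is upstream of the window, so this window is not that of the GENCODE start.

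Ndufaf4 (ENSMUSG00000028261, chr4:24898083-24905001) was at 0.406 CPM in GS, 0.813 in URI and 0.435 and 1.92 in WT in neutrophils, 11 UMIs in all. CD8 T cells had 52.7 CPM in GS, 46.6 in URI and 50.6 and 33.9 in WT, and NK cells had 28.5 in GS, 15.5 in URI and 21.5 and 16.1 in WT. No neutrophil value came near any CD8 T or NK value, and free RNA of the same libraries was at 23.0 to 35.4 CPM. The fitted log2 difference of neutrophils was -3.80 (SE 0.28, adjusted p = 4.82e-12, edgeR quasi-likelihood), and -5.02 by library totals. With monocytes and basophils added to the fit, the Ndufaf4 difference was -2.21 and was not called (adjusted p = 1.0, edgeR quasi-likelihood): Ndufaf4 was listed at 0 in the basophils of all 4 libraries, so that fit has no finite mean of the other gates for it.

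Ndufaf2 (ENSMUSG00000068184, chr13:108002715-108158623) was at 2.44 CPM in GS, 1.63 in URI and 1.74 and 2.88 in WT in neutrophils, 25 UMIs in all. In NK cells it was at 37.6 in GS, 33.9 in URI and 33.9 and 40.8 in WT, and in B cells at 34.0 in GS, 27.7 in URI and 33.2 and 38.9 in WT. The means of the 5 lymphoid gates ran from 30.8 to 38.9 CPM, and those gates overlapped. The log2 difference of neutrophils was -2.79 (SE 0.16, adjusted p = 3.36e-14, edgeR quasi-likelihood), and -4.01 by library totals. Ndufaf5 (ENSMUSG00000027384) had 1.22 CPM in GS, 2.44 in URI and 3.05 and 3.20 in WT in neutrophils, against means of 23.3 to 31.8 CPM in the lymphoid gates, a log2 difference of -2.27 (SE 0.18, adjusted p = 1.90e-11, edgeR quasi-likelihood) and -3.50 by library totals.

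Ndufa12 (ENSMUSG00000020022, chr10:94198720-94221443), the accessory subunit that takes the place of Ndufaf2 in human cells, had 107 CPM in GS, 71.0 in URI and 80.5 and 106 in WT in neutrophils. CD8 T cells had 87.7 CPM in GS, 64.0 in URI and 94.7 and 57.5 in WT, and NK cells had 70.5 in GS, 63.8 in URI and 59.7 and 50.4 in WT. In raw CPM the neutrophil and T cell ranges overlapped, while the neutrophil mean of 91.2 ± 18.3 (SD, n = 4) was the highest of the 6 gates. The log2 difference of neutrophils was 1.67 (SE 0.10, adjusted p = 3.42e-14, edgeR quasi-likelihood) with TMM and 0.43 by library totals. It was the one member called higher in neutrophils on both scales, while Ndufaf2 was called lower on both.

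The other assembly factors divided in the same gate. Ndufaf1, which belongs to the intermediate assembly complex in human cells, had 2.44 to 3.25 CPM in neutrophils and means of 20.9 to 22.9 in the lymphoid gates. Its log2 difference was -1.63 (SE 0.17, adjusted p = 2.15e-09, edgeR quasi-likelihood). Ndufaf6 had 6 UMIs in all neutrophils, against means of 7.16 to 13.7 CPM in the lymphoid gates. Basophils were low too. Their means were 0 CPM for Ndufaf4, 1.79 for Ndufaf6, 5.44 for Ndufaf5, 6.54 for Ndufaf2 and 7.24 for Ndufaf1, at most 6 UMIs each. Monocyte means were 11.5 CPM for Ndufaf4, 8.91 for Ndufaf6, 7.44 for Ndufaf5, 19.0 for Ndufaf2 and 8.43 for Ndufaf1. Ndufaf8, a partner of Ndufaf5 in human cells, averaged 14.6 ± 6.68 CPM in neutrophils and 53.3 to 79.9 in the lymphoid gates. Ndufaf3 averaged 15.3 ± 3.59 CPM in neutrophils and 25.6 to 28.3 in the lymphoid gates (SD, n = 4). Ndufaf7 stood near the lymphoid level, with 27.6 CPM in GS, 19.2 in URI and 17.8 and 19.9 in WT in neutrophils, and means of 17.6 to 20.6 CPM in B and T cells. Its log2 difference in neutrophils was 1.25 (SE 0.13, adjusted p = 2.42e-09, edgeR quasi-likelihood) with TMM and 0.00 by library totals. In all, 6 of the 8 assembly factors were lower and 2 higher (Ndufaf3 and Ndufaf7) with TMM, median -1.95. On that scale 46.0% of all genes were lower and 37.4% higher. By library totals 7 of the 8 were lower and none higher, median -3.18. There 74.3% of all genes were lower and 17.5% higher.

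**Figure D3:**
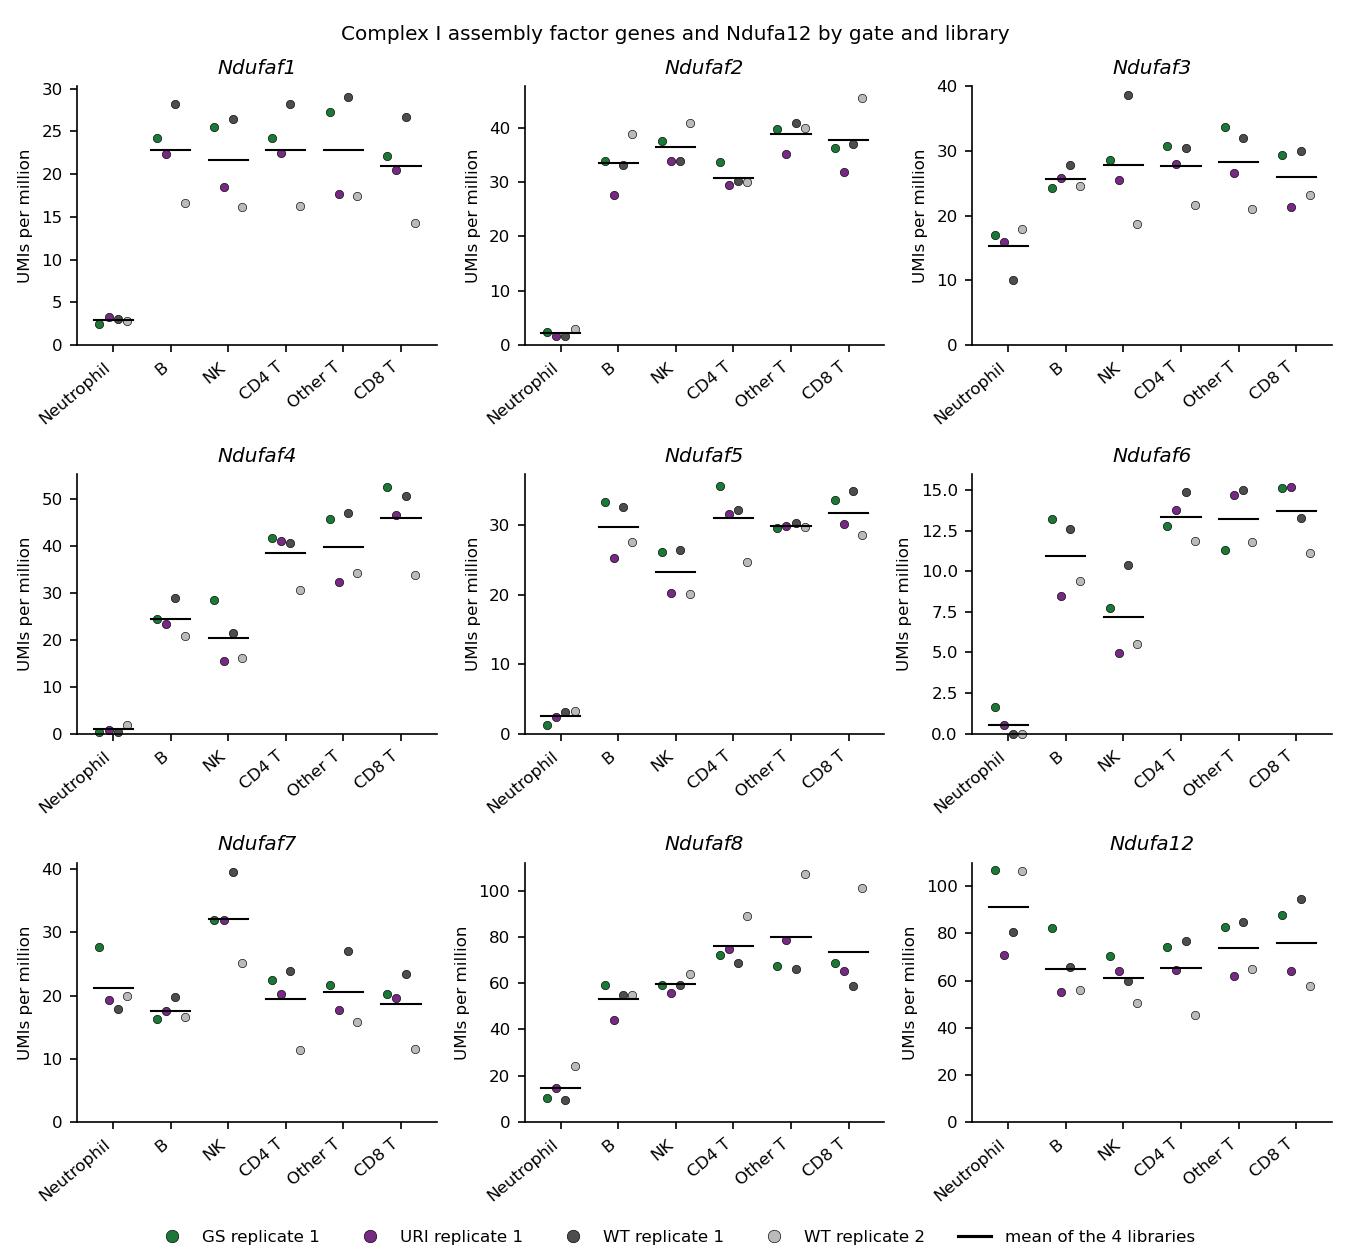
CPM of the assembly factors of complex I and of Ndufa12 by gate and library (vertical axes starting at 0), neutrophils at the left, with bars at the mean of 4 libraries. Ndufaf4, Ndufaf2 and Ndufaf5 lie at 0.406 to 3.20 CPM in neutrophils, far under the lymphoid gates. Ndufa12, at 71.0 to 107 CPM, lies within or above the range of those gates. Monocytes and basophils are not drawn.

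Among the subunits in neutrophils, the order by complex was similar on both scales, and the directions below are with TMM unless stated. With TMM 46.0% of all genes were lower in neutrophils and 37.4% higher. The core of complex I was lower in 6 of 7 (median -0.55), led by Ndufs3, a core subunit of the peripheral arm, at 10.6 CPM in GS, 17.3 in URI and 9.14 and 11.5 in WT in neutrophils, against 79.2 to 117 in the gate means of lymphoid cells. Its log2 difference was -1.71 (SE 0.10, adjusted p = 7.31e-14, edgeR quasi-likelihood). Of the 31 other subunits of complex I that were tested, 17 were lower and 9 higher. Ndufa5, an arm subunit, was at 6.50 CPM in GS, 8.401 in URI and 5.22 and 4.81 in WT, against lymphoid means of 46.7 to 72.6. Ndufb9, an accessory subunit of the membrane arm, had 90.6 CPM in GS, 111 in URI and 101.4 and 107 in WT in neutrophils, above the B cells at 64.7 ± 8.80 (SD, n = 4) and below the CD8 T cells at 123 ± 3.69. Its log2 difference was 1.21 (SE 0.06) with TMM and -0.03 by library totals (adjusted p = 0.606, edgeR quasi-likelihood), so its direction depends on the scale.

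In complex II the membrane anchor Sdhd was at 74.0 CPM in GS, 75.9 in URI and 62.6 and 102 in WT in neutrophils, overlapping the lymphoid gates with means of 67.0 to 102. The other anchor, Sdhc, averaged 33.5 ± 8.27 CPM in neutrophils and 79.4 to 137 in the lymphoid gates, log2 difference -0.58 (SE 0.08, adjusted p = 3.76e-07, edgeR quasi-likelihood). In complex III 5 of 8 were lower and 1 higher, Uqcrq, with 23.0 ± 6.31 CPM in neutrophils and 23.1 ± 1.47 in B cells. In complex IV 4 of 12 were lower and 4 higher with TMM, and 12 of 12 were lower by library totals. Cox7b fell, log2 -1.05 (SE 0.08), while Cox8a was higher with TMM, at 0.68 (SE 0.06), though its raw mean of 134 ± 23.8 CPM in neutrophils was under the 150 ± 31.1 of B cells. In complex V 8 of 15 were lower and 2 higher. With TMM 46.0% of all genes were lower and 37.4% higher, so the lower counts of complexes IV and V were near or under that share. Atp5o, a stalk subunit, had 16.4 ± 6.13 CPM in neutrophils and means of 84.5 to 152 in the lymphoid gates, log2 difference -1.61 (SE 0.11, adjusted p = 5.66e-13, edgeR quasi-likelihood). Over all members, neutrophils had the lowest mean CPM of the 6 gates in 80 of 85. How many of all genes were lowest there was not counted. By a different measure, the calls against the mean of the other gates by library totals, 74.3% of all genes were lower in neutrophils.

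B cells were lower in all 15 members of complex V tested (median -0.58), 10 of 12 of complex IV (-0.54), 5 of 8 of complex III (-0.40) and 3 of 4 of complex II (-0.47). In complex I, 26 of the 31 other subunits were lower and none higher, while of the 7 core subunits 2 were lower and 2 higher. Over all genes 32.7% were lower in B cells and 39.9% higher. Ndufa8, an accessory subunit (ENSMUSG00000026895, chr2:36036326-36049406), was at 87.8 CPM in GS, 80.1 in URI and 95.2 and 75.2 in WT in B cells. CD8 T cells had 163 in GS, 157 in URI and 187 and 158 in WT, with no overlap. Its log2 difference in B cells was -1.05 (SE 0.06, adjusted p = 2.11e-14, edgeR quasi-likelihood), and -0.88 by library totals. Ndufb9 had 68.8 CPM in GS, 64.8 in URI and 72.8 and 52.5 in WT in B cells, log2 difference -1.01 (SE 0.06, adjusted p = 3.82e-14). Ndufv3, a small flavoprotein-arm subunit, had 99.5 CPM in GS, 94.6 in URI and 105 and 106 in WT in B cells, under 249 in GS, 248 in URI and 257 and 287 in WT in CD4 T cells, log2 difference -0.93 (SE 0.13, adjusted p = 9.17e-07).

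The 7 members called higher in B cells were 5 assembly factors (Ndufaf1, Ndufaf2, Ndufaf4, Ndufaf5 and Ndufaf6) and the core subunits Ndufs3 and Ndufs8. Their mean of other gates contains the neutrophils, in which these genes were very low. Ndufaf5 rose by 0.57 on the log2 scale (SE 0.09, adjusted p = 3.51e-06, edgeR quasi-likelihood), yet its B cell mean of 29.7 ± 3.86 CPM was under the 31.8 ± 2.97 of CD8 T cells. Ndufaf2 rose by 0.53 (SE 0.08, adjusted p = 1.26e-06), with B cells at 33.4 ± 4.60 CPM and CD8 T cells at 37.7 ± 5.67. Ndufs3 rose by 0.28 (SE 0.06, adjusted p = 2.07e-04), with B cells at 91.2 ± 16.1 and CD8 T cells at 117 ± 11.6 CPM (SD, n = 4 each). In raw CPM B cells had the highest mean of the 6 gates for 1 of the 85 members, a count not made over all genes.

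T cells carried the highest levels of most members: CD8 T cells had the highest gate mean for 53 of 85, other T cells for 14 and CD4 T cells for 6. The same count was not made over all genes. A different measure, the calls against the mean of the other gates, was counted over all genes. By library totals 57.4% of them were higher in CD8 T cells, 60.8% in other T cells and 61.0% in CD4 T cells. In CD8 T cells 7 of 8 members of complex III, 12 of 15 of complex V, 7 of 12 of complex IV, 6 of 7 core subunits of complex I and 2 of 4 of complex II were higher. These calls are with TMM, where 36.1% of all genes were higher. Ndufa10, an accessory subunit, had 222 CPM in GS, 215 in URI and 266 and 157 in WT in CD8 T cells, and 98.6 in GS, 100.2 in URI and 100.98 and 66.3 in WT in B cells. In each library the CD8 T value was the higher one. The log2 difference of CD8 T cells was 0.89 (SE 0.07, adjusted p = 5.16e-11, edgeR quasi-likelihood). Ndufaf4 was higher in CD8 T cells by 1.33 (SE 0.11, adjusted p = 1.36e-10), in other T cells by 1.04 (SE 0.12) and in CD4 T cells by 1.02 (SE 0.12), again against means that contain the neutrophils. Ndufaf7 was the member called lower in CD8 T cells, at -0.49 (SE 0.11, adjusted p = 3.58e-04), which by library totals was -0.19.

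In CD4 T cells and other T cells, Atp5g1, which encodes the rotating c subunit of ATP synthase, was higher by 0.60 (SE 0.09) and 0.58 (SE 0.10), with 61.8 ± 8.86 and 61.4 ± 9.64 CPM, and CD8 T cells had 64.7 ± 7.52. B cells had 28.2 ± 2.64 CPM (SD, n = 4 each), with every library below every T cell value. Ndufv3 was higher in CD4 T cells by 0.56 (SE 0.12, adjusted p = 2.21e-04, edgeR quasi-likelihood), and Ndufaf2 in other T cells by 0.66 (SE 0.08, adjusted p = 1.45e-07). The lower calls by the naming rule were Ndufa12 (-0.44), Ndufaf7 (-0.43) and Cox8a (-0.23) in CD4 T cells, and Ndufaf7 (-0.39), Ndufa12 (-0.28) and Sdhd (-0.14) in other T cells. By library totals Cox8a in CD4 T cells was at 0.07, Ndufa12 in other T cells at 0.04 and Sdhd in other T cells at 0.17, so their directions turned with the scale.

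Set directly against CD4 T cells in the same fit, a comparison added after seeing the data, CD8 T cells were higher in 11 of 85 members and lower in none, where 10.7% of all genes were higher and 12.5% lower. The median of the members was 0.09, against 0.01 for all genes. Cox7a2l led with 0.39 (SE 0.06, adjusted p = 7.05e-06, edgeR quasi-likelihood), followed by Ndufb4 at 0.36 (SE 0.10), Ndufa10 at 0.33 (SE 0.09), Atp5mpl at 0.31 (SE 0.08) and Ndufa6 at 0.30. The remaining 6 were Ndufa4, Ndufaf2, Atp5l, Ndufb10, Uqcrfs1 and Cox7b, at 0.18 to 0.26.

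Cox7a2l (ENSMUSG00000024248, chr17:83501918-83517330), which is known from mouse cells to join complexes III and IV into supercomplexes, separated CD8 T cells from NK cells. CD8 T cells had 603 CPM in GS, 654 in URI and 625 and 587 in WT. NK cells had 182 in GS, 212 in URI and 190 and 188 in WT, and CD4 T cells had 468 in GS, 509 in URI and 483 and 431 in WT. B cells, at 280 ± 30.8 CPM, stood above the NK cells in every library, and neutrophils were lowest at 111 ± 13.8 (SD, n = 4 each). The 4 libraries of each of these gates did not overlap those of any other of them. The log2 difference was 0.94 in CD8 T cells (SE 0.04, adjusted p = 1.29e-15, edgeR quasi-likelihood) and -0.92 in NK cells (SE 0.05, adjusted p = 3.91e-14), and by library totals 1.24 and -0.77. Its paralogue Cox7a2, a complex IV subunit, did not share the pattern, with 50.5 ± 4.26 CPM in NK cells, 56.9 ± 3.65 in CD8 T cells, 49.1 ± 4.00 in CD4 T cells, while B cells had 31.6 ± 2.96.

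**Figure D4:**
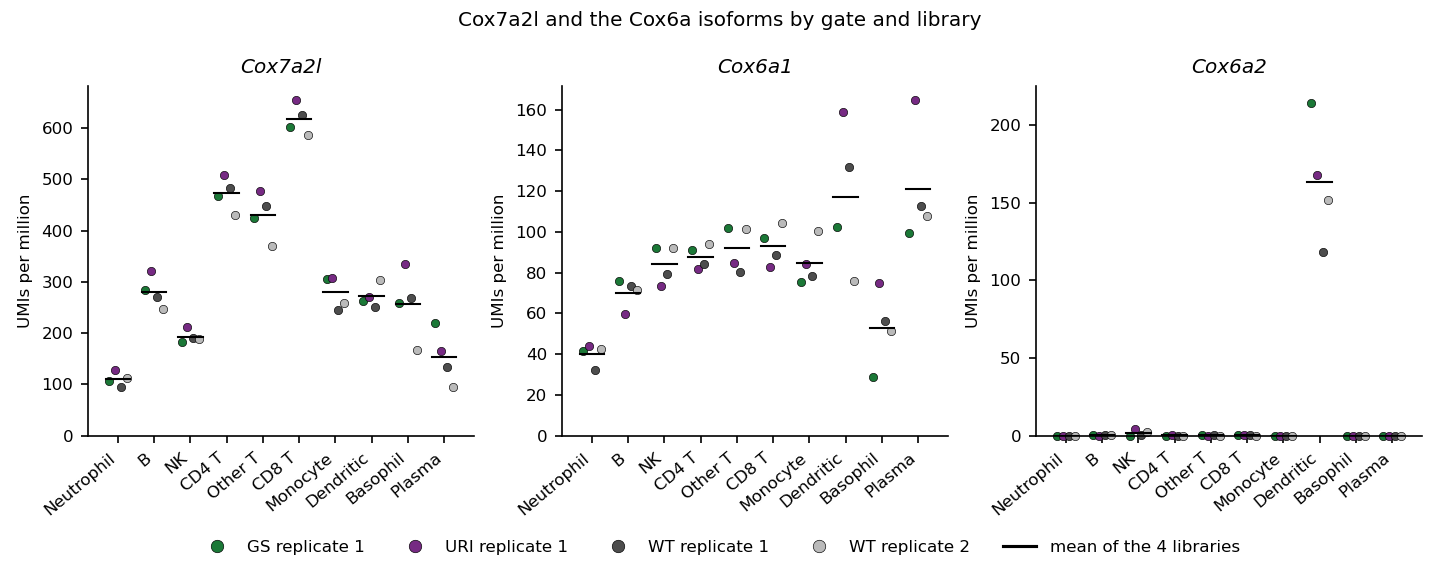
CPM of Cox7a2l and of the isoforms Cox6a1 and Cox6a2 by gate and library (vertical axes starting at 0), the 4 gates under 50 barcodes at the right, with bars at the mean of 4 libraries. Cox7a2l is lower in NK cells (182 to 212 CPM) than in B cells (247 to 321) and highest in CD8 T cells (587 to 654), and Cox6a2 stands out in the dendritic gate.

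Higher calls by the naming rule in NK cells were Ndufaf2 at 0.71 (SE 0.08, adjusted p = 5.94e-08, edgeR quasi-likelihood), Ndufa4 at 0.56 (SE 0.07) and Ndufaf7 at 0.56 (SE 0.11). Ndufa4 was first placed in complex I and is now counted with complex IV. Its NK level of 85.6 ± 29.5 CPM overlapped the 88.6 ± 32.0 of CD8 T cells and lay above the 39.0 ± 12.6 of B cells (SD, n = 4 each). Ndufaf7 had 31.9 CPM in GS, 31.9 in URI and 39.6 and 25.2 in WT in NK cells, above the B and T cell value of each library. Besides Cox7a2l, Ndufa12 at -0.41 (SE 0.10) and Ndufb1-ps at -0.34 (SE 0.07) were lower on both scales, the last being annotated as a long non-coding RNA at a shared promoter in GENCODE vM21.

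The 13 mitochondrially encoded subunits complete the same complexes. In neutrophils and NK cells they lay further under CD8 T cells than the nuclear ones did, but not in B cells. Their sum was 507 CPM in GS, 492 in URI and 512 and 388 in WT in neutrophils, against 6095 in GS, 5825 in URI and 6763 and 3055 in WT in CD8 T cells. Neutrophils held 7.56% to 12.7% of the CD8 T level of the same library, and all 13 were lower, by -2.39 to -1.70 on the log2 scale with TMM. B cells held 83.5% to 106% of it, where the nuclear members were at 62.1% to 64.7%, and NK cells held a mean of 62.8%, where the nuclear members were at 82.0%. The ratio of the nuclear to the mitochondrially encoded sum was 5.99 in GS, 7.71 in URI and 5.80 and 8.99 in WT in neutrophils. In the other 5 gates it was 0.963 to 4.05, with NK cells above B cells in every library. Within each gate WT replicate 2 had the lowest mitochondrially encoded sum of the 4 libraries, while its nuclear sum was 0.89 to 0.93 of that of WT replicate 1 in the lymphoid gates and 1.18 in neutrophils. Complex IV ran the other way, with WT replicate 2 highest of the 4 libraries in all 6 gates.

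Other genes of the pathway were taken from fixed lists. Of 36 assembly factors outside the rule, 25 were lower and 7 higher in neutrophils (median -1.24), of 15 electron carriers and entry points 13 were lower and 1 higher (-1.32), and of 13 TCA cycle genes 10 were lower and 3 higher (-0.52), where 46.0% of all genes were lower and 37.4% higher, with a median of -0.25. Cox10, which makes the heme of complex IV, fell by 3.08 on the log2 scale (SE 0.20), and Fh1, fumarase, fell by 2.80 (SE 0.19). Gpd2, which feeds electrons from glycolytic glycerol phosphate, was the one entry point higher, at 1.61 (SE 0.09), and Pet100, a complex IV chaperone, was at 1.93 (SE 0.07). Of 17 regulators of mitochondrial biogenesis, 10 were lower and 5 higher in neutrophils, where 46.0% of all genes were lower and 37.4% higher. Tfam, the packaging and transcription factor of mitochondrial DNA, fell by 2.47 (SE 0.11), Polrmt, the mitochondrial RNA polymerase, by 2.50 (SE 0.25) and Pprc1, a coactivator of the Pgc1 family, by 3.02 (SE 0.16). Nrf1 was at 0.61 (SE 0.07) and Esrra at 1.19 (SE 0.08). By library totals none of the 17 regulators was called higher in neutrophils and 15 were lower, where 17.5% of all genes were higher and 74.3% lower.

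In B cells 13 of the 17 regulators were higher and 1 lower (median 0.49, all genes 0.06), with Tfam at 1.04 (SE 0.06), while the TCA cycle divided into 2 higher and 3 lower of 13. Fh1 was at 1.48 (SE 0.08, adjusted p = 1.82e-14, edgeR quasi-likelihood) in B cells. In CD8 T cells 7 of 13 TCA cycle genes, 9 of 15 carriers and 22 of 36 outside assembly factors were higher, with 0, 1 and 4 lower. In NK cells Etfb, which passes electrons from fatty acid oxidation, was at 1.43 (SE 0.10, adjusted p = 7.00e-12, edgeR quasi-likelihood), and 7 of the 13 TCA cycle genes were higher and 2 lower. Over all genes, 39.9% were higher and 32.7% lower in B cells. These shares were 36.1% and 31.4% in CD8 T cells and 33.2% and 27.1% in NK cells. The 78 Mrpl and Mrps genes and 43 Rpl and Rps genes of the list were listed at 0 and gave no comparison with ribosomal genes.

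The tissue-restricted isoforms, most of them of muscle, lung or testis, had few UMIs: the 8 of them (Cox4i2, Cox6a2, Cox6b2, Cox7a1, Cox7b2, Cox8b, Cox8c and Ndufa4l2) had 884 UMIs together out of 1221453 for all members. Cox6b2 had 418 UMIs, Cox7a1 237, Cox6a2 218, Ndufa4l2 7, Cox4i2 3 and Cox8c 1, and Cox7b2 and Cox8b were listed at 0. Cox6a2, the heart and muscle form of a complex IV subunit, was gathered in few barcodes. In dendritic-gated barcodes with a UMI of Siglech, a marker of plasmacytoid dendritic cells, it had 91 UMIs in 48 barcodes, 26 of them with a UMI of it. That was 242 CPM in GS (exact 95% Poisson interval 176 to 325), 294 in URI (174 to 464) and 173 (79.0 to 328) and 261 (160 to 403) in WT, intervals of counting error only. The UMIs lay in 14 of 20 barcodes in GS, 5 of 7 in URI and 2 of 6 and 5 of 15 in WT. Spread between barcodes is not in the intervals. In the 16 dendritic-gated barcodes without Siglech, Cox6a2 was listed at 0, B cells had 3 UMIs in 6915 barcodes, CD8 T cells 4 in 4569 and NK cells 22 in 2952. In the same Siglech barcodes its common paralogue Cox6a1 had 82.5 CPM in GS, 147 in URI and 134 and 52.2 in WT.

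No member was called between a deletion library and WT in any gate. Each comparison has 1 deletion library, so its spread comes from the 2 WT pools alone, with 1 residual degree of freedom. Over GS against WT and URI against WT in the 6 gates and in all barcodes, 0 of 1188 member tests passed (edgeR quasi-likelihood, lowest adjusted p = 0.198), 4 had an unadjusted p under 0.05, and DESeq2 called 0. Over all genes the calls for GS against WT were 0.00% in B cells, CD4 T cells, CD8 T cells, other T cells, NK cells and all barcodes, and 0.0113% in neutrophils. For URI against WT they were 0.00% in B and CD4 T cells, 0.00934% in CD8 T cells, 0.00953% in other T cells, 0.0100% in NK cells, 0.805% in neutrophils and 0.0391% in all barcodes. The design made few calls on any gene, so the absence of calls does not show equal levels.

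Named below are the largest rise and fall of each comparison among members of at least 20 CPM that lay outside both WT values, none of them called. Over all members tested, with no such limits, differences ran from -1.02 to 1.24 against WT in B and T cells, and in NK cells Cox6a2 had 0 UMIs in GS, 16 in URI and 2 and 4 in WT. Of the 24 named differences outside neutrophils, 23 moved by over 1.5 times when 1 of the WT libraries was left out. In B cells Cox5b was at 81.8 CPM in GS, against 97.8 and 120 in WT, log2 difference -0.45, and -0.27 without WT replicate 2. In CD4 T cells Cox6b1 was at 104 CPM in URI, against 127 and 177 in WT, log2 -0.57, and -0.30 without WT replicate 2. In other T cells Cox7b was at 101.2 CPM in URI, against 200.2 and 105 in WT, log2 -0.62, and -0.99 without WT replicate 2 but -0.10 without WT replicate 1. For the others the value without WT replicate 2 is given second. For GS they were Uqcrc2 (0.43, 0.0088) in B cells, Ndufaf5 (0.29, 0.14) and Cox5b (-0.33, -0.19) in CD4 T cells, Ndufa9 (0.34, 0.22) and Ndufc2 (-0.42, -0.22) in CD8 T cells, Ndufb2 (0.43, 0.26) and Uqcrq (-0.40, -0.55) in other T cells, and Ndufaf4 (0.55, 0.40) and Ndufc2 (-0.47, -0.013) in NK cells. For URI they were Atp5md (0.30, 0.17) and Ndufb6 (-0.48, -0.069) in B cells, Atp5c1 (0.34, 0.18) in CD4 T cells, Atp5g3 (0.26, 0.13) and Ndufb1-ps (-0.41, -0.60) in CD8 T cells, Atp5g3 (0.24, 0.16) in other T cells, and Uqcrc2 (0.37, 0.034) and Cox6b1 (-0.38, -0.16) in NK cells. In all barcodes they were Ndufa9 (0.36, 0.13) and Cox5b (-0.27, -0.13) in GS, and Atp5g3 (0.32, 0.15) and Cox6b1 (-0.42, -0.26) in URI.

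Neutrophils of the URI library lay apart without a member being called. There 49 of 78 members were above both WT libraries, where 35.6% of all genes were, and 8 were below both, where 25.2% were. The median log2 difference of the members was 0.23 and that of all genes -0.00. In GS neutrophils 18 members were above both, where 25.7% of all genes were, and 32 below both, where 31.0% were. The median of the members was -0.06, against -0.02 over all genes. Ndufv3 was at 97.0 CPM in URI neutrophils, against 32.2 and 45.8 in WT and with 27.2 in GS, log2 1.29 (SE 0.43, unadjusted p = 0.00258, edgeR quasi-likelihood). Uqcrq was at 13.8 CPM in GS neutrophils, against 24.4 and 28.2 in WT, log2 -0.88 (SE 0.48), and Ndufaf7 differed there by 0.60. Cox7b was at -0.43 in URI neutrophils, -0.08 without WT replicate 1 and -0.74 without WT replicate 2.

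The neutrophil gate of URI also held more cells with transcripts of granule proteins. Barcodes with UMIs of at least 3 of Ltf, Ngp, Camp and Chil3, genes of granules that form before neutrophils mature, were 118 in URI (16.4% of neutrophil barcodes, 39.0% of their UMIs). They were 9 in GS (1.30% and 3.12%) and 20 and 23 in WT (3.01% and 7.30%, 1.84% and 3.84%). Their summed member level was 4560 CPM in URI, 3798 in GS and 4477 and 4390 in WT, above that of the remaining neutrophils in each library, at 3302 in URI, 3013 in GS and 2846 and 3454 in WT. Ndufv3 in them was at 183 CPM in URI, 117 in GS and 107 and 134 in WT, against 42.2 in URI, 24.3 in GS and 26.3 and 42.3 in WT in the rest. The values in them rest on 263 UMIs in URI, 9 in GS and 18 and 16 in WT. Ndufc2 had 66 UMIs in them in URI, 0 in GS and 4 and 5 in WT. They were also deeper, with medians of 12379 UMIs in URI, 8348 in GS and 8210 and 5635 in WT. The rest had 3798 in URI, 3679 in GS and 3359.5 and 2497.5 in WT. Without these barcodes, an alternative added after seeing the data, the Ndufv3 difference of URI against WT was 0.18.

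**Figure D5:**
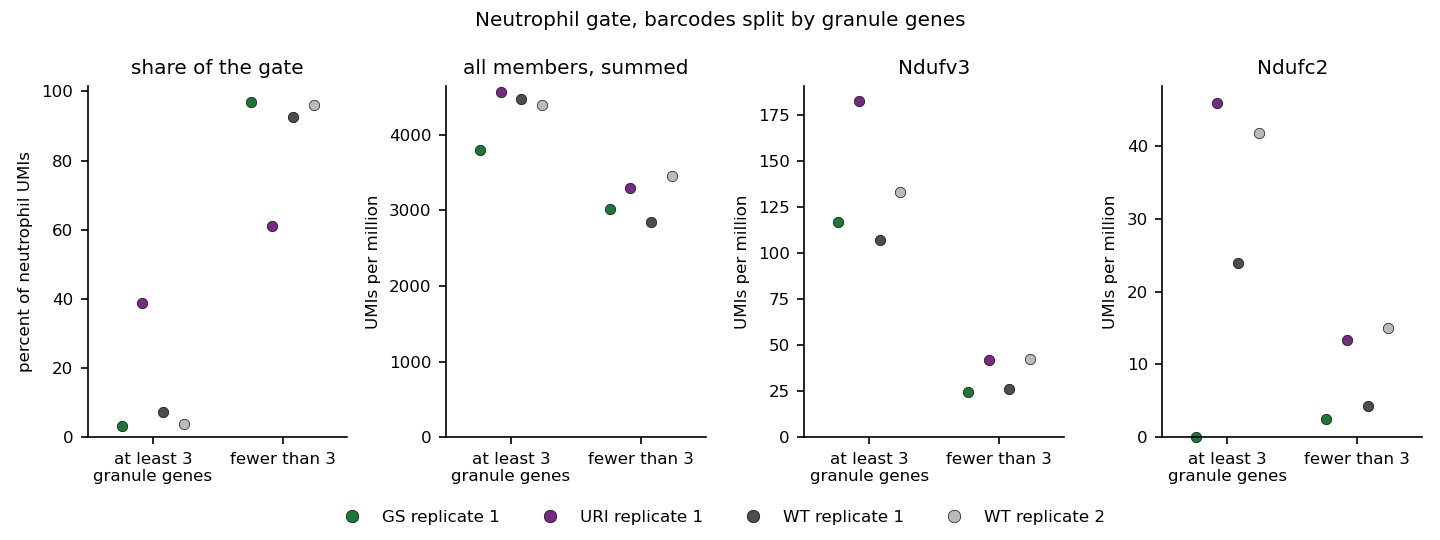
Share of neutrophil UMIs (percent) and levels of the summed members, of Ndufv3 and of Ndufc2 (CPM, vertical axes starting at 0) in neutrophils with UMIs of at least 3 granule genes and in the remaining neutrophils, by library. In every library Ndufv3 and the summed members are higher in the barcodes with granule genes (Ndufv3 at 107 to 183 CPM, against 24.3 to 42.3). These barcodes hold 39.0% of the UMIs in URI and 3.12% to 7.30% in the other libraries. Ndufc2 has 0 UMIs in them in GS, against 2.52 CPM in the rest of that library.

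Between the deletion libraries, 1 of 1782 member tests over all contrasts was called, Ndufc2 in neutrophils, an accessory subunit of complex I (ENSMUSG00000030647, chr7:97400003-97407802). It had 6 UMIs (2.43 CPM) in GS and 96 (26.0 CPM) in URI, with 13 and 50 UMIs in WT, log2 difference of GS over URI -3.32 (SE 0.75, adjusted p = 0.00289, edgeR quasi-likelihood). WT replicate 2, at 16.02 CPM, and WT replicate 1, at 5.66, lay between them. The call did not hold by library totals, with DESeq2, with a gate of 1 marker, at a cell limit of 1000 UMIs, without the top 5% of barcodes or without the granule-gene neutrophils (-2.21). Over all genes the calls of GS against URI were 0.601% in neutrophils, 0.0469% in all barcodes and 0.00% in the other 5 gates.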

How the data were processed

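RNA of fixed CD45+ liver cells was measured by probe hybridisation in 4 libraries. The authors deposited matrices of whole-number UMI counts per gene and barcode, without normalisation and with all barcodes, made with Cell Ranger 8.0.0 on mm10, per the submitters' processing notes. The sources used here do not give the number of probes per gene. Rows of 59 deprecated probes, with 0.0535% to 0.0714% of UMIs, stayed out of the tests. Gates left out barcodes that passed 2 lineages (14.6% to 20.6%) or none (2.99% to 8.36%), and no doublet caller was run. Barcodes are not replicates, so counts were summed per library and gate and tested with edgeR 4.0.16 (quasi-likelihood, TMM, filterByExpr) in R 4.3.3, with Benjamini-Hochberg adjustment over all genes of a contrast and calls at 0.05. DESeq2 1.42.0 was an alternative. Gate contrasts had the library as a block. Genotype contrasts had 1 residual degree of freedom, from the WT pools. Nothing in the labels says how mice were assigned to pools, so the spread may be partly technical. Sums, figures and thinning used python 3.11.15 with numpy 2.4.6, pandas 2.3.3 and matplotlib 3.10.9.

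The members, lists and tests were chosen with earlier results of these data known. Named members were the 3 largest rises and falls per gate contrast past 0.05, at 20 CPM or more and in the same direction in 4 libraries. Per genotype contrast they were the largest rise and fall at 20 CPM or more and outside both WT values. Tissue-restricted isoforms were always given. Ndufaf1, Ndufaf3, Ndufaf6, Ndufaf8, Ndufs3, Ndufa5, Sdhd, Sdhc, Uqcrq, Cox7b, Cox8a, Atp5o and Cox7a2, and the genes named from other lists, were chosen after their values were seen. So were fits with monocytes and basophils (at least 25 barcodes), without granule-gene neutrophils, and of CD8 T against CD4 T cells, and the sum of complex IV without Cox7a2l. Both fits were run on simulated data in which all gates shared the same profile apart from a set of changed genes. Scaling between gates that differ as widely as these was not tested there. Alternatives were other scaling, test, filter, gate, UMI and mitochondrial limits, no library block and leaving out each library. Gene coordinates are from GENCODE vM21 on GRCm38.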

Additional observations from a re-analysis of the deposited data

Results flagged for a closer look

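Cox6a2, the heart and muscle form of a complex IV subunit, had too few UMIs for the gate contrasts and was not called in the genotype tests it entered (NK cells and all barcodes), yet it had 91 UMIs in the 48 dendritic-gated barcodes with a Siglech UMI, pooled over 4 libraries. It was picked out because this is a signal in barcodes outside the gates tested, far above the limit of 3 counts that a count of 0 allows. Barcodes left out of all gates that had a Siglech UMI held 69 UMIs of Cox6a2 in 73 barcodes, and those without Siglech held 24 in 7608. In the dendritic-gated Siglech barcodes each library had 173 to 294 CPM of Cox6a2, from 2 to 14 barcodes with a UMI of it.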

How the results depend on the processing

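No paired analysis was possible because the groups share only replicate number 1. Of 1244 values recomputed, 312 counts of members stayed within 1.5 times and 36 did not. Of the single members, 853 values, called or not, kept their direction and side of the threshold or, with no test, moved by less than the replicate spread, 31 lost their call, 8 moved beyond that spread and 4 reversed. The cause of each move was not tested, apart from what a setting changes by construction. By library totals the higher counts were 12 in B, 77 in CD4 T, 80 in other T, 57 in NK cells and 1 in neutrophils, and the lower counts 0 in CD4 T, 0 in CD8 T, 0 in other T, 3 in NK cells and 82 in neutrophils. That scaling also reversed Cox8a in CD4 T cells (0.075), Ndufa12 (0.038) and Sdhd (0.17) in other T cells and Ndufb9 in neutrophils (-0.033), the one of these past the threshold being Sdhd (adjusted p = 0.0162, edgeR). Without the library block, higher counts were 26 in CD4 T, 39 in CD8 T, 28 in other T and 17 in NK cells, and lower counts 2 in CD4 T, 0 in other T and 3 in NK cells. With a gate of 1 marker, 25 were higher in CD4 T and 24 in other T cells, and 0 were lower in other T and 3 in NK cells. DESeq2 gave 4 lower in CD8 T and 5 in other T cells. Limits of 1000 UMIs, leaving out the top 5% of barcodes and leaving out granule-gene neutrophils each gave 2 lower in CD8 T cells. Over the libraries left out in turn, lower counts ranged from 1 to 3 in CD8 T, 0 to 3 in other T and 4 to 7 in NK cells. The Ndufc2 call between GS and URI neutrophils went to 0 by library totals, DESeq2, a gate of 1 marker, 1000 UMIs, the top 5% and without granule-gene neutrophils. Depth limits the assembly factors in neutrophils most, with 6 to 34 UMIs for Ndufaf1, Ndufaf2, Ndufaf4, Ndufaf5 and Ndufaf6.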

Other observations

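WT replicate 2 stood apart gene by gene and not in 1 direction. It had the highest CPM of the 4 libraries in all 6 gates for 6 of the 85 members, Atp5d, Cox5b, Cox6b1, Cox8a, Ndufa2 and Ndufb6 (7.06%, against 10.6% of all genes). It had the lowest in all 6 gates for 7 members, Atp5md, Atp5o, Ndufa4, Ndufb4, Ndufs6, Ndufv2 and Uqcrc2 (8.24%, against 9.31% of all genes), and for 8 of the 13 mitochondrially encoded subunits.

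Ndufaf7 had 41.2 CPM in GS, 63.8 in URI and 65.5 and 27.8 in WT in monocytes, above B and T cells in each library.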
